A study of Mus musculus with 2 samples.

Results

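The MHC class I presentation pathway was examined by RNA-seq in leukemic stem cells (LSCs) of mice with chronic myeloid leukemia (CML), of which 1 library was WT and 1 was STAP-1 KO. The 9 genes were taken by symbol, with no threshold on their values, and all 9 were among the 23284 gene symbols measured in both libraries. They were the heavy chain genes H2-K1, H2-D1 and H2-T23, the light chain gene B2m, the peptide transport, loading and trimming genes Tap1, Tap2, Tapbp and Erap1, and the transactivator gene Nlrc5. In both groups, LSK cells (lineage negative, Sca-1 positive, c-Kit positive) of the C57BL/6J background (Ly5.2) had been transduced with a retrovirus carrying human BCR-ABL and green fluorescent protein (GFP), and were transplanted into lethally irradiated C57BL/6SJL (Ly5.1) mice together with bone marrow cells of that strain. GFP+ CD45.2+ LSK cells were sorted from the recipients, and the expression profiles were those of day 11 after the first transplantation. Mice were 8 to 14 weeks old, and the STAP-1 KO donors carried a targeted disruption of the Stap1 locus. The number of mice behind each library was not given in the sources used here.

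MHC class I molecules show peptides from inside the cell to CD8+ T cells and are ligands for receptors of natural killer cells. Proteasomes cut proteins into peptides, the TAP transporter carries them into the endoplasmic reticulum, aminopeptidases trim them, and tapasin with its partner chaperones helps to load them onto a heavy chain paired with β2-microglobulin. NLRC5 switches on many genes of this pathway at their promoters, and interferons and NF-κB raise them further. Nearly all nucleated cells express class I molecules.

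The class I promoters are shown first because H2-K1 and H2-D1, whose ratios between the libraries lay on opposite sides of 1, held the same 3 motifs, while H2-T23 held another. RefSeq promoter windows of GRCm38.p6, from 250 bases before to 50 bases after a transcription start, were found for 7 of the 9 genes (not for Tap2 and Nlrc5). The windows were searched on both strands for a κB motif (GGGATTCCC), an interferon response motif in 2 forms that differ in their last letter (TTTCNNTTC and TTTCNNTTT), and a CRE-like motif (TGACGC). Among all 32851 windows, 116 (0.353%) held the κB motif, 2469 (7.52%) the interferon response form ending in C and 3466 that ending in T, and 2432 (7.4%) the CRE-like motif. The 3 motifs lay together in H2-K1 in this stretch (chr17:34000348-34000471, minus strand, bases -124 to -1 from the start), with each motif in capitals:

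H2-K1: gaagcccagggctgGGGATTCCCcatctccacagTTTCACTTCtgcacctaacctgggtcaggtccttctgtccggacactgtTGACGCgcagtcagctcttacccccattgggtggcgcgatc

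The part from the κB motif to the interferon response motif was then set beside the same part of H2-D1 (chr17:35262924-35262952, plus strand) and of H2-Q6 and H2-Q7, 2 further heavy chain genes described below (chr17:35424678-35424706 and chr17:35439023-35439050, plus strand). Motifs are again in capitals:

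H2-K1: GGGATTCCCcatctccacagTTTCACTTC

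H2-D1: GGGATTCCCcatctcctcagTTTCACTTC

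H2-Q6: GGGATTCCCcatctccccagTTTCACTTC

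H2-Q7: GGGATTCCCatctccccagTTTCACTTC

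Over these 29 bases H2-D1 and H2-Q6 each differed from H2-K1 at 1 base, while the H2-Q7 stretch had 28 bases. The κB motif and the interferon response form ending in C occurred together in 11 of the 32851 windows (0.0335%), which belonged to 10 genes, and 4 of these 10 were H2-K1, H2-D1, H2-Q6 and H2-Q7. All 3 motifs, with the CRE-like motif, lay in 4 windows (0.0122%), those of H2-K1, H2-D1 and R3hdm2, a gene of chromosome 10. The CRE-like motif was not matched in the windows of H2-Q6 and H2-Q7. In H2-K1 and H2-D1 it began 69 bases after the first base of the κB motif. The interferon response form ending in T was matched in H2-T23 (chr17:36032807-36032835, minus strand) and, on the opposite strand to the gene, in B2m (chr2:122147539-122147567, plus strand), shown with the motif in capitals:

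H2-T23: atcctactgcTTTCTCTTTcataaagaca

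B2m: taagaacatgAAACTGAAAatgggaaagt

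In Erap1 this form spanned the transcription start, from base -4 to base 5. None of the 4 motifs was matched in the windows of Tap1 and Tapbp. A match describes the letters of these windows only.

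The libraries were checked before the comparison. Stap1 had 61.95 FPKM in WT and 0.309 FPKM in STAP-1 KO. FPKM values relate the reads of a gene to its length and to the size of the library, and allow levels of different genes to be set side by side. The steps between low values gave effective depths of about 7496000 reads for WT and 10466000 for STAP-1 KO, and from these the reads behind each value were estimated. The sort markers Kit (468 and 30.1 FPKM) and Ly6a (285 and 106 FPKM), which encode c-Kit and Sca-1, were detected in both libraries and were more than 2-fold lower in STAP-1 KO. With 1 library per genotype, no p-value can be given, a difference between the genotypes cannot be told apart from one between mice, sorts or library preparations, and all 95% intervals below cover the counting of reads only. Markers of other cells differed between the libraries. All 11 mast cell and basophil markers with a mean of 1 FPKM or more were at least 2-fold lower in STAP-1 KO, and the 12 listed summed to 52270 FPKM in WT and 5305 FPKM in STAP-1 KO. Kit is one of these 11 as well as a sort marker, and without it the other 11 listed summed to 51790 and 5274 FPKM. Of 7 neutrophil precursor markers, 6 were at least 2-fold higher, with sums of 567 and 4627 FPKM. Over all 10974 genes averaging 1 FPKM or more, 11.5% were at least 2-fold higher and 22.2% at least 2-fold lower. T cell markers summed to 3.89 and 7.41 FPKM over 5 genes. Of these, Cd3g (1.80 and 5.04 FPKM), Cd3e and Cd4 were higher in STAP-1 KO. Cd8a (0.369 and 0.132 FPKM) and Cd3d (0.713 and 0.681 FPKM) were lower. B cell markers summed to 3.604 and 17.98 FPKM over 6 genes, of which 3 were at 0 in both libraries. Cd79b (3.10 and 17.8 FPKM) and Cd79a (0 and 0.171 FPKM) were higher in STAP-1 KO, and Ms4a1 (0.505 and 0.0517 FPKM) was lower. Since each value is a sum over the cells of a library, fewer cells of a type and less RNA per cell cannot be told apart here. Every one of these cell types can express class I genes, and the part of cell composition in the values below was not tested.

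With at least 0.1 FPKM in both libraries, 1 of the 9 genes passed the 2-fold cut-off used by the study. This was H2-T23, which was lower in STAP-1 KO, and no member was at least 2-fold higher. Among all 12507 genes compared on this basis, 12.3% were at least 2-fold higher and 22.9% at least 2-fold lower. The median log2 ratio, log2((STAP-1 KO + 0.1)/(WT + 0.1)), was -0.09 over the 9 genes and -0.04 over the 10974 genes averaging 1 FPKM or more. The median of the members thus lay close to that of all genes, while single members spread from -1.28 to 0.88. With the length and GC correction described below, the median of the members was 0.29 and Tap1 (1.15) was past the cut-off upwards.

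**Figure D1:**
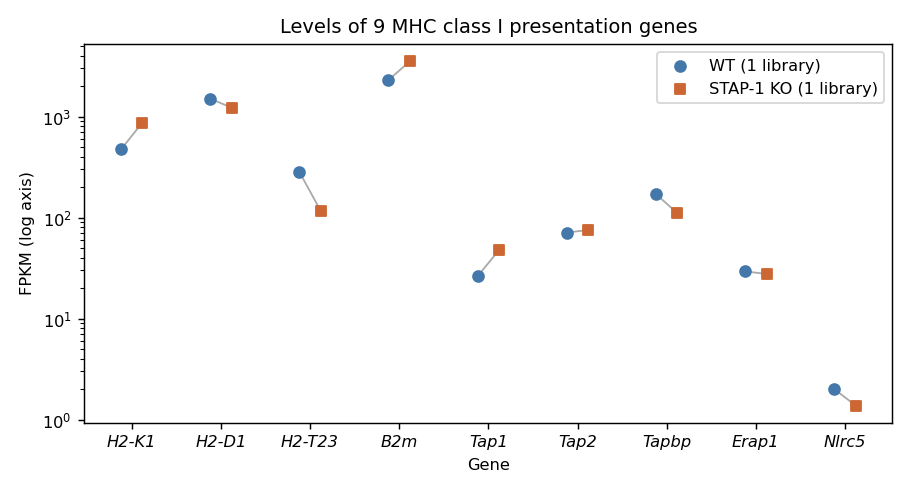
FPKM (log axis) of the 9 MHC class I presentation genes in the WT library (circles) and the STAP-1 KO library (squares), 1 library each, with a line joining the values of a gene. B2m and H2-D1 have the highest levels in both libraries, Nlrc5 has the lowest (2.00 and 1.38 FPKM), and the line of H2-T23 is the steepest (284 and 117 FPKM).

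The heavy chain is the polymorphic subunit that holds the peptide. H2-K1, which encodes the classical molecule H-2K, occupies chr17:33996017-34000347 of GRCm38 (minus strand). It had 473 FPKM in WT (estimated at 4995 reads) and 871 FPKM in STAP-1 KO (12890 reads). Its log2 ratio of 0.88 (95% counting interval from 0.83 to 0.93) lay above that of 85.1% of all genes averaging 1 FPKM or more, and its ratio of 1.84 stayed below the cut-off. H2-D1, which encodes the second classical molecule of this strain, H-2D, lies on the plus strand from 35262730 to 35267499 of the same chromosome. It had 1505 FPKM in WT and 1227 FPKM in STAP-1 KO, a log2 ratio of -0.30 (from -0.32 to -0.27). The 2 classical genes therefore differed in opposite directions. H2-K1 per H2-D1 was 0.315 in WT and 0.710 in STAP-1 KO, a log2 difference of 1.18 (from 1.12 to 1.23), and this quantity does not depend on how the libraries were scaled to each other.

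H2-T23 encodes Qa-1, a nonclassical molecule that presents leader peptides of other class I chains to the CD94/NKG2 receptors of natural killer cells. Its position is chr17:36029773-36032855 (minus strand). It had 284 FPKM in WT and 117 FPKM in STAP-1 KO, from 2682 and 1544 reads as estimated, and its log2 ratio of -1.28 (from -1.38 to -1.19) was lower than that of H2-D1 by 0.99 (from -1.08 to -0.89). H2-T23 per H2-K1 was 0.5996 in WT and 0.134 in STAP-1 KO. The sum of the 3 heavy chain genes was nearly the same in both libraries, 2262 FPKM in WT and 2215 FPKM in STAP-1 KO, while its make-up differed. H2-K1 made up 20.9% of the sum in WT and 39.3% in STAP-1 KO, H2-D1 66.5% and 55.4%, and H2-T23 12.6% and 5.26%.

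**Figure D2:**
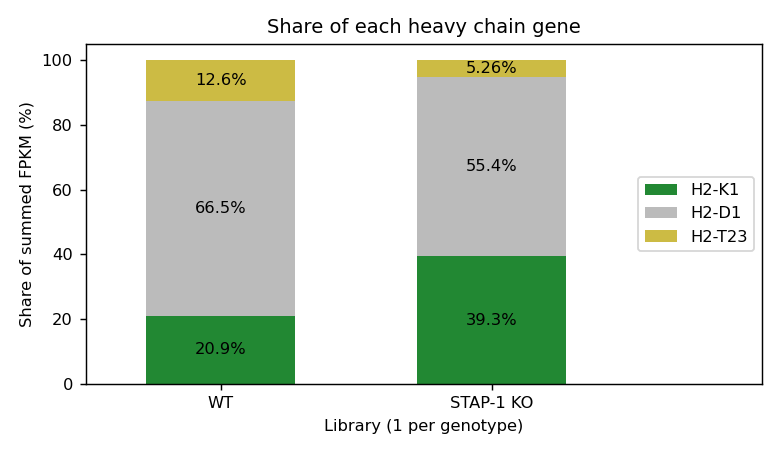
Share of H2-K1, H2-D1 and H2-T23 in the summed FPKM of these 3 genes (in %, bars from 0), for the WT library and the STAP-1 KO library, 1 library each. H2-D1 is the largest part in both, and the part of H2-K1 is larger in STAP-1 KO (39.3%) than in WT (20.9%).

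Reads of such similar genes can be given to the wrong copy. This was measured by cutting the longest coding GENCODE M21 transcript of each gene into all 75-base windows, the read length, and by looking for exact copies in transcripts of other genes on either strand. Of the H2-K1 windows 1.55% occurred in another gene, H2-D1 among them, against 7.10% for H2-D1 and 13.1% for H2-T23. For B2m and Nlrc5 no window was shared. Windows with a mismatch were not counted.

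The other class I heavy chain genes of the MHC each had fewer FPKM than H2-T23 in both libraries, the highest being H2-Q7 in STAP-1 KO. Of 29 listed, 27 were in the files, 10 averaged 1 FPKM or more, and 11 were listed at 0 in both libraries. In STAP-1 KO, 5 of the 10 exceeded the cut-off upwards and 1 downwards, against 11.5% and 22.2% of all genes averaging 1 FPKM or more, and the median log2 ratio was 1.15. All 5 were genes of the Q region, which includes those encoding the nonclassical Qa-2 molecule. H2-Q7 had 16.4 FPKM in WT and 89.8 FPKM in STAP-1 KO, H2-Q6 had 8.80 and 44.6 FPKM, H2-Q8 had 1.37 and 9.50 FPKM, H2-Q4 had 0.337 and 2.11 FPKM, and H2-Q9 had 1.29 and 3.75 FPKM. H2-Q6 to H2-Q9 are close copies, and 13.6% of the H2-Q7 windows were found in H2-Q6, so the division between them is uncertain. Their sum was 27.8 FPKM in WT and 147.7 FPKM in STAP-1 KO, 5.31-fold higher, and its share of all class I heavy chain FPKM was 1.19% and 6.11%. H2-T22 (3.41 and 1.06 FPKM), a neighbour of H2-T23 in the T region, was the gene past the cut-off downwards. However, 20.1% of its windows were found in H2-T10 (0.397 and 1.17 FPKM), and the sum of both was 3.803 and 2.227 FPKM, within the cut-off. H2-M3, which presents formylated peptides, had 26.1 FPKM in both. H2-Q9, H2-T22, H2-T10 and H2-M3 were named after their values were seen.

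B2m encodes β2-microglobulin, the light chain that pairs with these heavy chains. It lies on chromosome 2 from 122147686 to 122153083 on the plus strand and had the highest level of the 9 genes, at rank 17 of all genes in WT and rank 5 in STAP-1 KO. Its level was 2300 FPKM in WT and 3537 FPKM in STAP-1 KO, a log2 ratio of 0.62 (from 0.59 to 0.65). B2m per summed H2-K1, H2-D1 and H2-T23 was 1.02 in WT and 1.60 in STAP-1 KO. The transcript of B2m is the shortest of the 9, with 860 bases, and with the length and GC correction its log2 ratio was -0.16.

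Tap1 and Tap2 encode the subunits of the peptide transporter and are neighbours on chromosome 17 (from 34187553 to 34197225 and from 34203527 to 34216321, plus strand). Tap1 had 26.3 FPKM in WT and 47.6 FPKM in STAP-1 KO, with a log2 ratio of 0.85 (from 0.711 to 1.002). Tap2 had 71.1 and 75.3 FPKM, with a log2 ratio of 0.08 whose interval from -0.01 to 0.17 includes 0. Although the proteins work as a pair, Tap1 per Tap2 was 0.370 in WT and 0.633 in STAP-1 KO, a log2 difference of 0.77 (from 0.60 to 0.95). Psmb9, an immunoproteasome gene that starts next to Tap1 in the opposite direction, had 71.2 and 195 FPKM. Tap1 and Psmb9 share 212 exon bases on opposite strands, and since the library kit does not mark strand, reads from these bases cannot be told apart. Tap2 shares 533 exon bases with Gm15821 and 165 with Gm20496, and 8.97% of its windows occurred in another gene, against 4.79% for Tap1.

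Tapbp encodes tapasin, the chaperone that bridges TAP and the empty heavy chain (chromosome 17, from 33915899 to 33929292, plus strand). It had 171 FPKM in WT and 111 FPKM in STAP-1 KO, a log2 ratio of -0.62 (from -0.70 to -0.55), so that Tapbp per Tap1 was 6.48 in WT and 2.32 in STAP-1 KO. An antisense gene, Gm19412, overlaps 904 exon bases of Tapbp, and 17.5% of the Tapbp windows were shared with other genes. Zbtb22, a protein-coding gene on the same strand, shares 149 exon bases with Tapbp and had 9.563 FPKM in WT and 5.455 FPKM in STAP-1 KO. Erap1, the aminopeptidase that trims peptides in the endoplasmic reticulum, is on chromosome 13 from 74639568 to 74693201. It had 29.4 and 27.6 FPKM, a log2 ratio of -0.09 (from -0.20 to 0.02) that was 0.29 after the length and GC correction. It shares 834 exon bases with Cast on the opposite strand, which had 65.8 FPKM in WT and 24.2 FPKM in STAP-1 KO.

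Nlrc5 is on chromosome 8 from 94434356 to 94527272 on the plus strand. Its protein carries no DNA-binding domain of its own and acts with the RFX, NF-Y and CREB factors bound at class I promoters. Its level was the lowest of the 9 genes, 2.00 FPKM in WT and 1.38 FPKM in STAP-1 KO, or about 110 and 106 estimated reads. The log2 ratio of -0.51 has a counting interval from -0.94 to -0.14, and after the length and GC correction it was 0.60. Ordered by FPKM, the 9 genes ran in both libraries from B2m, H2-D1, H2-K1, H2-T23, Tapbp and Tap2 down to Nlrc5, and only Tap1 and Erap1, between Tap2 and Nlrc5, exchanged places. Which neighbours in this order differ beyond the spread between mice could not be tested with 1 library per genotype.

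**Figure D3:**
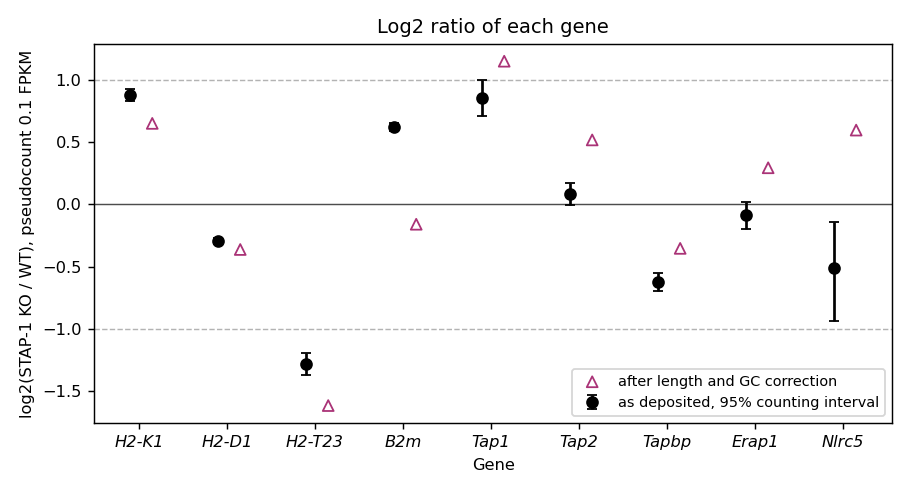
Log2 ratio of STAP-1 KO to WT for each gene as deposited (filled circles, bars for the 95% counting interval, 1 library per genotype) and after the length and GC correction (open triangles), with dashed lines at the 2-fold cut-off. H2-K1 and Tap1 are above 0 and H2-D1, H2-T23 and Tapbp below 0 in both, whereas B2m, Erap1 and Nlrc5 change sign with the correction.

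Log2 ratios varied with transcript length in these libraries. Over 10865 genes averaging 1 FPKM or more, Spearman's rank correlation of log2 ratios with longest coding transcript lengths was -0.40, which is a description across genes of 1 pair of libraries. The median log2 ratio was 0.53 for the shortest length class (up to 1191 bases) and -0.99 for the longest (from 6253 bases). The 9 genes run from 860 bases (B2m) to 7578 bases (Nlrc5), so length and the differences between members are partly mixed. When the median of genes of the same length and then of the same GC content was subtracted, Tap1 had a log2 ratio of 1.15, H2-K1 0.65, Nlrc5 0.60, Tap2 0.52, Erap1 0.29, B2m -0.16, Tapbp -0.35, H2-D1 -0.36 and H2-T23 -1.62. The differences between H2-K1 and H2-D1 (1.01), between H2-T23 and H2-D1 (-1.26) and between Tap1 and Tap2 (0.63) kept their direction. The correction removes every difference that goes with length or GC content, the 2 were not separated, and the source of the length trend was not tested.

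**Figure D4:**
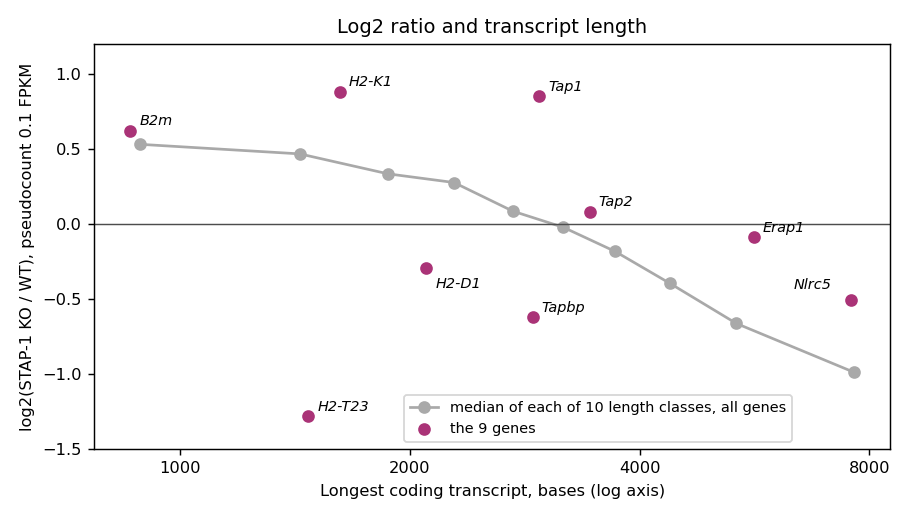
Log2 ratio of STAP-1 KO to WT of the 9 genes against the length of their longest coding transcript in bases (log axis), with the median log2 ratio of all genes averaging 1 FPKM or more in 10 length classes (grey, placed at the median length of each class). Tap1, H2-K1, Erap1, Nlrc5 and, by less, Tap2 lie above the grey line and H2-D1, Tapbp and H2-T23 below it, while B2m lies close to it.

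The steps before TAP were examined with lists of further genes. All 6 genes of the immunoproteasome and PA28 list had a log2 ratio above 0 as deposited (Psme2 turned from 0.15 to -0.21 with the length and GC correction), with a median of 0.92, and 3 of them were at least 2-fold higher in STAP-1 KO (11.5% of all genes). After the length and GC correction 1 of the 3, Psmb9 (1.04), stayed past the cut-off, and Psmb8 (0.96) and Psmb10 (0.86) did not. Those 3 were the catalytic subunits that interferon puts in place of the constitutive ones, namely Psmb9, Psmb8 (229 and 523 FPKM) and Psmb10 (55.1 and 122.9 FPKM). Psme1, which encodes a subunit of the PA28 activator, had 212 and 340.2 FPKM. The constitutive counterparts were higher by less than 2-fold, Psmb5 with 107 and 202 FPKM, Psmb6 with 210 and 364.5 FPKM and Psmb7 with 110 and 170.2 FPKM, and in that list of 5 genes only Psme4 (16.5 and 5.19 FPKM), which encodes the PA200 activator, passed the cut-off, downwards, with a log2 ratio of -1.65 that was -0.83 after the length and GC correction. The median log2 ratio of these 5 was 0.63 as deposited and 0.17 after the length and GC correction, whereas that of the immunoproteasome list was 0.83 after it. Among 7 further peptidases that trim or destroy peptides, 1 was at least 2-fold lower (22.2% of all genes), Lnpep (14.5 and 4.07 FPKM), an endosomal membrane aminopeptidase that trims peptides for cross-presentation, and the median was -0.32. Lap3 had 180.3 and 100.2 FPKM, Thop1, which destroys peptides, 25.9 and 45.4 FPKM, and Npepps 13.7 and 8.79 FPKM. After the length and GC correction Lap3 (-1.21) was past the cut-off downwards and Thop1 (1.12) upwards.

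Among endoplasmic reticulum genes around the loading complex (chaperones, glucosidase subunits and subunits of the Sec61 channel), none of 10 passed the cut-off in either direction (11.5% of all genes did upwards and 22.2% downwards), and their median log2 ratio was 0.16. Calr, the calreticulin gene, had 777 and 956 FPKM, and Sec61b, a Sec61 channel subunit gene, had 204 and 314.5 FPKM. Tapbpl, which encodes the tapasin relative TAPBPR, had 11.4 FPKM in WT and 21.5 FPKM in STAP-1 KO and so differed in the opposite direction to Tapbp. Uggt1, the glucosyltransferase that returns badly folded chains to the chaperones, had 24.5 and 12.4 FPKM, and its log2 ratio of -0.98 was 0.03 after the length and GC correction. Of the class I-like genes outside the MHC class I set, 6 of 17 averaged 1 FPKM or more, with a median of -0.68, and 1 was past the cut-off upwards and 2 downwards, against 11.5% and 22.2% of all genes. Cd1d1, which presents lipids to natural killer T cells, was at least 2-fold higher (7.67 and 17.65 FPKM), and Fcgrt, the neonatal Fc receptor heavy chain (3.40 and 1.31 FPKM), and Ulbp1, a ligand of the NKG2D receptor (5.22 and 2.02 FPKM), were at least 2-fold lower. Mr1, which presents vitamin B metabolites, had 7.65 and 3.90 FPKM. Cd1d1 (0.75) and Ulbp1 (-0.95) were no longer past the cut-off after the length and GC correction, while Mr1 (-1.37) was past it downwards.

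The transcription factors that act on class I promoters had over 19 genes a median log2 ratio of 0.01, with 1 at least 2-fold higher and 4 at least 2-fold lower in STAP-1 KO. Against 11.5% and 22.2% of all genes, these counts do not set the list apart. Lower were the NF-κB genes Nfkb2 (24.6 and 8.91 FPKM) and Relb (12.7 and 4.80 FPKM), Irf8 (45.4 and 19.6 FPKM) and Stat2 (10.8 and 4.38 FPKM). The 1 higher gene was Irf1, named after its values were seen, with 29.4 FPKM in WT and 59.65 FPKM in STAP-1 KO, just past the cut-off. After the length and GC correction Irf1 (0.93), Nfkb2 (-0.89) and Stat2 (-0.67) were no longer past the cut-off, while Relb (-1.30) and Irf8 (-1.17) were. The RFX and NF-Y subunit genes, the partners of NLRC5, did not pass it in either direction. Of the 7 interferon receptor and kinase genes, 4 were at least 2-fold lower and none higher (22.2% and 11.5% of all genes), with a median of -1.40. These were Ifngr2 (66.8 and 25.2 FPKM) and the kinase genes Jak1 (181 and 53.96 FPKM), Jak2 (48.2 and 13.1 FPKM) and Tyk2 (31.8 and 8.17 FPKM). After the length and GC correction the median was -0.95, and 3 of the 4 stayed past the cut-off, without Tyk2 (-0.95).

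Class I genes were set beside the 2 groups of genes that share their regulators. Of 30 interferon-stimulated genes, 14 were at least 2-fold higher in STAP-1 KO and none at least 2-fold lower (11.5% and 22.2% of all genes), with a median log2 ratio of 0.61. After the length and GC correction 12 of the 14 stayed past the cut-off. Gbp2 (17.99 and 10.71 FPKM), named after its values were seen, was then past it downwards (-1.07). The 14 included Ifi44 (0.988 and 12.6 FPKM), Rtp4 (8.99 and 65.2 FPKM), Cxcl10 (16.9 and 77.1 FPKM) and Bst2 (71.96 and 243.7 FPKM). In contrast, 7 of 9 MHC class II genes were at least 2-fold lower and none higher (22.2% and 11.5% of all genes), with a median of -1.77, and all 7 stayed past the cut-off after the length and GC correction. Cd74, the invariant chain gene, had 963 and 226 FPKM, H2-Ab1 659 and 193 FPKM, H2-Eb1 110.0 and 30.1 FPKM and H2-DMb1 39.5 and 10.48 FPKM. Dendritic cell and macrophage markers, which include cells that express class II genes, summed to 35.8 FPKM in WT and 19.99 FPKM in STAP-1 KO over 10 genes, and 4 of the 7 averaging 1 FPKM or more were at least 2-fold lower, 3 of them also after the length and GC correction, with Flt3 at 7.62 and 6.54 FPKM. Csf1r, 1 of the 7, named after its values were seen, was at least 2-fold higher (1.56 and 5.31 FPKM). Their part in the class II values was not tested.

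**Figure D5:**
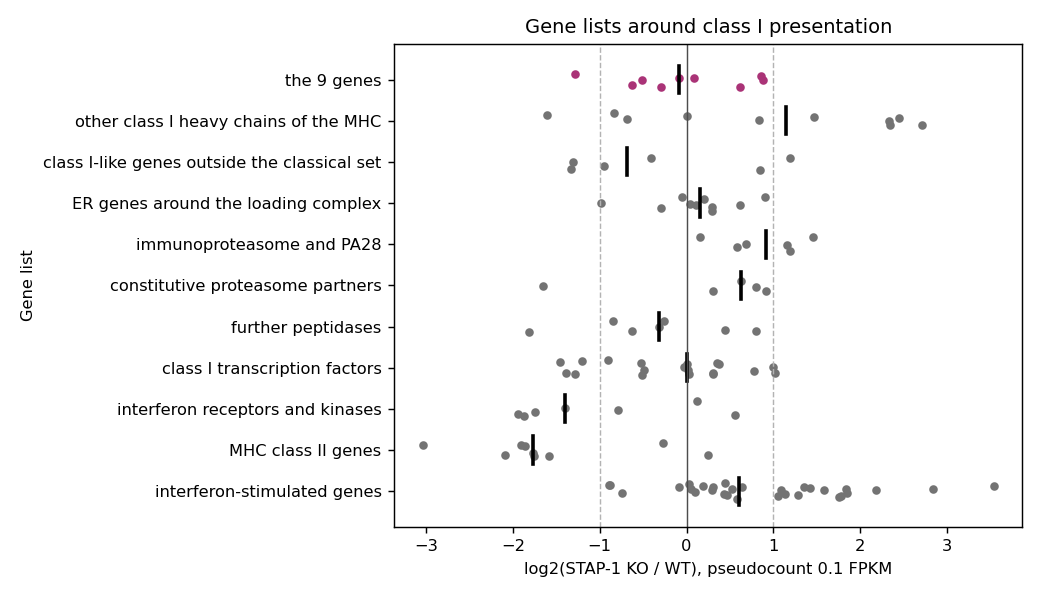
Log2 ratio of STAP-1 KO to WT (1 library each) of the 9 class I presentation genes and of the genes averaging 1 FPKM or more in each of 10 related lists, 1 point per gene, with a bar at the median of each list and dashed lines at the 2-fold cut-off. Medians are lowest for MHC class II genes (-1.77) and interferon receptors and kinases (-1.40) and highest for the other class I heavy chains (1.15), while the 9 genes lie around 0.

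The position of the genes was examined as well, since 6 of the 9 lie in the MHC of chromosome 17. From Tapbp to H2-M3 (chr17:33915899-37274484) there were 175 measured genes, of which 109 had at least 0.1 FPKM in both libraries. Of these, 10 (9.17%) were at least 2-fold higher and 26 (23.9%) at least 2-fold lower, shares near the 12.3% and 22.9% of all genes. Without the 6 members, the median log2 ratio in this region was -0.20 over 89 genes averaging 1 FPKM or more.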

How the data were processed

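RNA-seq was analysed from 1 WT and 1 STAP-1 KO library of CML LSCs. The authors extracted RNA, amplified cDNA with a low-input SMART-Seq kit, made Nextera XT libraries and sequenced 75-base single reads. They mapped these to mm10 with TopHat 2.0.13 and Bowtie2 2.2.3 (SAMtools 0.1.19 per the labels) and deposited FPKM values made with Cuffnorm 2.2.1. The annotation and library scaling were not given in the sources used here.

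Ratios, scalings and medians of these values were calculated in Python 3.11.15 (pandas 2.3.3, numpy 2.4.6, scipy 1.17.1, and matplotlib 3.10.9 for plots). Genes 2-fold or more apart counted as past the cut-off where both libraries reached 0.1 FPKM. Log2 ratios used a pseudocount of 0.1 FPKM, which understates differences of low genes. Lists were described over genes averaging 1 FPKM or more. Members and lists were chosen with earlier results of these data known. Named genes were the 9 members, Stap1, up to 4 genes per related list that were farthest from 0 on the log2 scale when 1 FPKM was added, and the top gene of each marker list. Those not described above had, in WT and STAP-1 KO, 17980 and 1774 FPKM (Cpa3), 248 and 1973 (Mpo), 464 and 795 (Nkg7), 103 and 108 (Klf1) and 46.9 and 23.4 (Pecam1). Other members of the natural killer list were lower in STAP-1 KO, such as Gzma (21.1 and 8.70), as were 4 of 5 in the erythroid list, such as Slc4a1 (48.3 and 12.4). In the endothelial list of Pecam1, Emcn (0.110 and 0.787) and Kdr (0.331 and 0.510) were higher and Tek (1.17 and 1.18) nearly the same. The log2 ratio of Pecam1 was -0.90 after the length and GC correction, within the cut-off. Gzma, Slc4a1, Emcn, Kdr, Tek, Cd3e, Cd3d, Cd4, Cd8a, Cd79a, Ms4a1, Ly6a, Psme2 and genes overlapping a member were named outside this rule.

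Lengths, GC content and coordinates came from GENCODE M21 (GRCm38). Of the symbols, 20911 matched as written, 1901 through an older symbol and 472 did not. Effective depth was the value that put most FPKM values below 0.3 of single-transcript genes within 0.01 of a whole read, 48.0% of 321 values in WT and 48.7% of 396 in STAP-1 KO. Counting intervals are exact (Clopper-Pearson) 95% intervals of the STAP-1 KO share of estimated reads, for the ratio without a pseudocount. Steps were tested on simulated data.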

Additional observations from a re-analysis of the deposited data

How the results depend on the processing

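All values compare 1 library with 1 library, so no replicate could be left out. No paired analysis was possible because there is 1 library per genotype. Under a 1.5-fold cut-off 3 members were higher (H2-K1, B2m, Tap1) and 2 lower (H2-T23, Tapbp), and under a 3-fold cut-off 0 were lower. FPKM floors and scalings left the counts at 0 higher and 1 lower. Scaling both libraries to the same FPKM sum moved all genes by 0.10 on the log2 scale, which turned the sign of Erap1 and of the members' median (0.015). After the transcript length and GC correction 1 member was past the cut-off upwards (Tap1), the median log2 ratio of the members was 0.29, and B2m, Erap1 and Nlrc5 changed sign. The same correction gave medians of 0.17 for constitutive proteasome partners, -0.11 for further peptidases, -0.95 for interferon receptors and kinases and -2.10 for MHC class II genes, and log2 differences of 1.01 for H2-K1 per H2-D1 and -1.26 for H2-T23 per H2-D1. For the other class I heavy chains the corrected median is void, since 7 of 10 genes have a length. Of their 5 higher genes, 3 (H2-Q4, H2-Q6 and H2-Q7) stayed past the cut-off and 2 (H2-Q8 and H2-Q9) have no length, and the 1 lower gene, H2-T22, stayed past it. At a pseudocount of 1 FPKM the medians of these heavy chains and of MHC class II genes were 0.91 and -1.68. With a mean of at least 5 FPKM the median was 0.84 for the heavy chains and 1.14 for interferon-stimulated genes. Nlrc5 rests on about 110 and 106 estimated reads.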

Other observations

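The 10 genes whose promoter windows held both the κB motif and the interferon response form ending in C included 6 outside the MHC. Derl2 had 21.4 FPKM in WT and 22.3 FPKM in STAP-1 KO, Hyal2 had 18.1 and 21.2 FPKM, R3hdm2, whose window also held the CRE-like motif, had 9.18 and 3.45 FPKM, and Cd209e was listed at 0 in both. The other 2 were not among the symbols of the files. These values were looked at after the motif search and describe letters in windows only.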
